A study of Mus musculus with 14 samples.

Results

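The genes described here are those that encode the protein subunits of oxidative phosphorylation. They were chosen by a rule on symbols, with earlier results of these data known. The rule takes protein-coding genes named Nduf followed by a, b, c, s or v and a number, Sdha to Sdhd, Uqcr, Cyc1, Cox4 to Cox8 or Atp5, together with the 13 protein genes of the mitochondrial chromosome. The rule found 99 of the 36047 genes listed, 86 in the nuclear genome and 13 in the mitochondrial genome. By complex, the nuclear genes were 35 of complex I, 4 of complex II, 9 of complex III, 20 of complex IV and 18 of complex V, and the mitochondrial genes were 7 of complex I, 1 of complex III, 3 of complex IV and 2 of complex V. Ndufa4 and its relative Ndufa4l2, named for complex I, were counted with complex IV, where the Ndufa4 protein is found. Atp5s, an accessory factor, and Cox7a2l, which links complexes into supercomplexes, also meet the rule. A pair of identifiers carry the symbol Atp5o, and one of them had 0 counts in every library.

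Oxidative phosphorylation passes electrons from NADH (complex I) and succinate (complex II) through complex III and cytochrome c to oxygen at complex IV, and complex V uses the resulting proton gradient to make ATP. Complex II is encoded wholly in the nucleus, and the other complexes combine nuclear and mitochondrial subunits, so that the genomes have to supply parts of the same machines. Mitochondrial genes are transcribed from both strands as long precursors that are cut at the transfer RNAs between them, with mt-Nd6 the sole protein gene on the light strand. Pluripotent cells are known for relying on glycolysis, and cardiomyocytes for many mitochondria and for muscle forms of some complex IV subunits.

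Paired-end RNA libraries were sequenced from mouse embryoid bodies, the aggregates formed by differentiating embryonic stem cells, in medium for mesoderm. The control was the iHA-Foxk1 stem cell line, which the titles call iHAFoxk1 ND in the earlier samples and Control in the day 10 samples; it was compared with Foxk1 knockout (KO) cells, in which the forkhead transcription factor gene Foxk1 is disrupted. Both lines were grown on fibroblast feeders, which were depleted by plating before differentiation. Embryoid bodies were collected at days 3, 5 and 10, and at day 10 a further KO group was titled IWR1, an inhibitor of canonical Wnt signalling that acts by keeping Axin stable, whose dose and timing the labels do not state. Each of the 7 groups had 2 libraries, and nothing says that they came from separate cultures, so every p-value below reflects only how far these samples scatter, and that scatter may be technical. As far as the labels say, each genotype is 1 line, so the effect of Foxk1 and any unrelated difference of those lines cannot be told apart. Whether the KO libraries of day 10 come from the same line as those of days 3 and 5 was not tested. Libraries were made from RNA captured on oligo-dT beads, per the labels' protocols, a step that depends on poly(A) tails, which are short on mitochondrial messengers. Because these are bulk samples, fewer cells of a type and less RNA per cell cannot be told apart.

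Depth ranged from 10574194 to 11621032 estimated counts per library at days 3 and 5, and from 34466708 to 52747273 at day 10. Foxk1 stood at 86.2 and 76.4 CPM (counts scaled to a common library total) in the day 3 control libraries and 16.2 and 16.5 in KO, and at 134 and 133 against 38.2 and 33.6 CPM at day 5. At day 10 it stood at 65.0 and 80.1 CPM in control, 71.3 and 41.8 in KO and 26.4 and 52.9 in KO with IWR1, so control and KO overlapped and the day 10 directions rest on the labels alone. The day 5 KO libraries differed from each other: replicate 2 held less of 8 fibroblast markers (146 against 516 CPM summed) and more of 8 pluripotency markers (571 against 304 CPM) than replicate 1. Within each day 10 group, the log2 ratio of replicate 2 to replicate 1 followed transcript length over all protein-coding genes tested, with a Spearman's rho across genes of 0.66 in control, -0.67 in KO and 0.55 in KO with IWR1. Genes are not independent replicates, and these values are a description. Many nuclear subunit transcripts are short (36 of 81 under 700 bases in control). Those had a median log2 ratio of -0.51 in control, 0.84 in KO and -0.62 in KO with IWR1, and every nuclear comparison at day 10 carries that spread.

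Per kilobase of transcript, the mitochondrial genes stood far above the nuclear ones. Their median was 2588 CPM per kb over the day 3 and day 5 groups and 1164 CPM per kb over the day 10 groups, against 89.3 and 136 CPM per kb for the nuclear genes. mt-Co1, the catalytic core of complex IV, was highest in each group of days 3 and 5 and in day 10 control, where it stood at 6282 CPM per kb and mt-Co3, a further core subunit of complex IV, at 4959. In the other day 10 groups the order was turned round, with mt-Co3 at 5499 and mt-Co1 at 2964 CPM per kb in KO, and 2367 against 620.2 in KO with IWR1. The complex I gene mt-Nd3 was lowest in each group of days 3 and 5 and in day 10 control (336 CPM per kb), but not in day 10 KO (730.2) or KO with IWR1 (119), where mt-Nd5 was lowest at 568 and 110.04 CPM per kb. mt-Nd3 has a nuclear copy, Gm28438, that differs from it at 1 of 345 aligned bases, and counts placed on the copy are not in those levels. Among nuclear genes Atp5b, the catalytic beta subunit of complex V, was highest in 6 of the 7 groups, from 667 CPM per kb in day 10 control to 871 in KO with IWR1. In day 10 KO it stood at 594 CPM per kb, below Uqcrh, the hinge protein of complex III, at 683, Cox4i1, a structural subunit of complex IV, at 651, and Atp5e at 598. These are group means of 2 libraries, and the order of close neighbours was not tested.

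The share of all counts that fell on the 13 mitochondrial genes differed most between the day 10 groups. The day 3 control libraries gave 2.61% and 2.45%, and the KO libraries of that day 2.48% and 2.41%. Day 5 control gave 4.26% and 5.32%, and day 5 KO 4.36% and 2.63%, the lower value being that of replicate 2. Day 10 control gave 3.00% and 3.78%, KO 2.28% and 1.55%, and KO with IWR1 0.368% and 0.641%. The 3 day 10 groups thus did not overlap and stood in the order control, KO, KO with IWR1. The share of the 86 nuclear genes lay between 0.828% and 0.956% in the libraries of days 3 and 5, and its day 10 values overlapped between groups, with 1.38% and 1.06% in control, 0.898% and 1.34% in KO and 1.54% and 1.21% in KO with IWR1. The log2 ratio of summed mitochondrial to summed nuclear counts was 1.48 ± 0.51 (SD, n = 2) in day 10 control, 0.78 ± 0.80 in KO and -1.49 ± 0.82 in KO with IWR1.

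**Figure D1:**
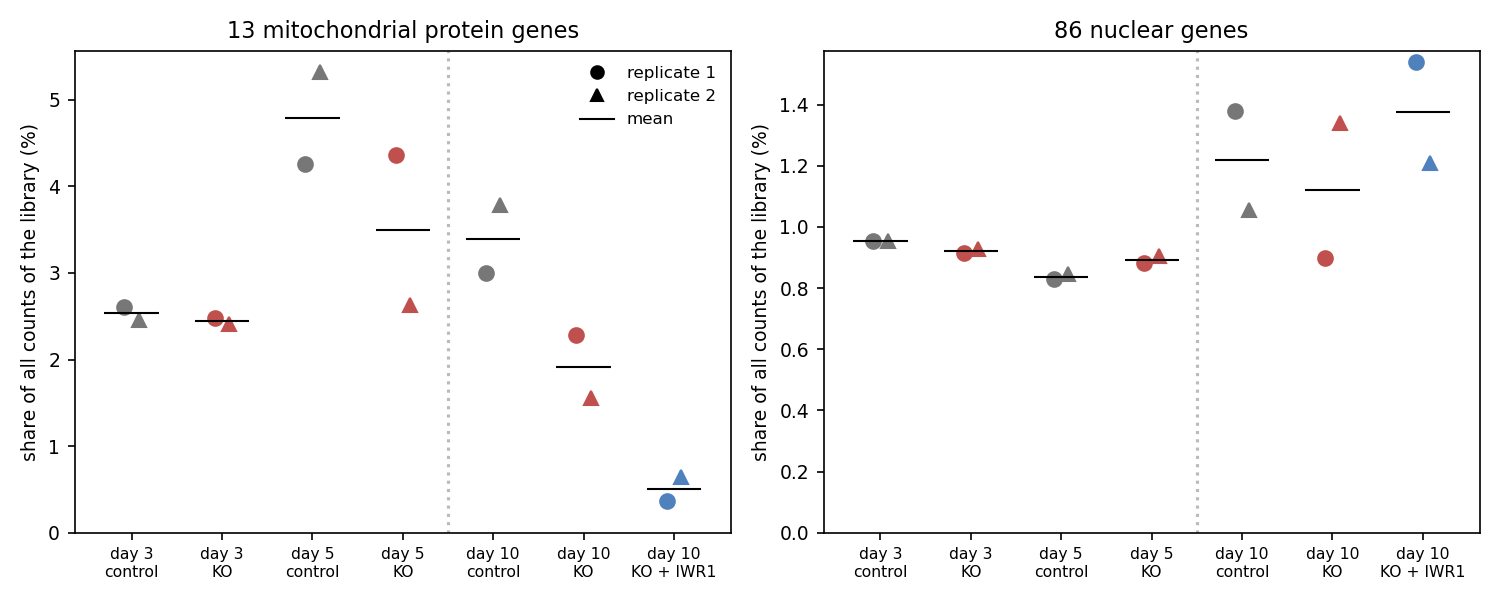
Share of all counts in each library (%) on the 13 mitochondrial protein genes (left) and the 86 nuclear subunit genes (right), by group; circles are replicate 1, triangles replicate 2, horizontal lines the mean of 2, and the dotted line parts the separately deposited tables. The day 10 KO libraries with IWR1 sit at 0.368% and 0.641% on the left, below every other library, while on the right they lie within the spread of the other day 10 groups or just above it.

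The comparison of KO embryoid bodies with and without IWR1 asks what the Wnt inhibitor changes in the KO background. All 13 mitochondrial genes had a negative log2 fold change with IWR1, and 12 of them were called lower by edgeR's quasi-likelihood test (adjusted p under 0.05 over all genes), where 8.08% of all genes tested were called lower. Their median log2 fold change was -2.29, against -0.01 over all genes tested. None of the 83 nuclear genes tested was called in either direction at this depth and spread (4 had an unadjusted p under 0.05, and DESeq2 called 2 higher), where 5.77% of all genes were called higher, and their median log2 fold change was 0.22. The ratio of mitochondrial to nuclear counts fell by 2.27 on the log2 scale (pooled SD 0.81), which is 4.82-fold.

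mt-Cytb, the only mitochondrial subunit of complex III, stood at 1860 and 1324 CPM in KO and at 252 and 391 CPM with IWR1 (log2 fold change -2.31 ± 0.36, adjusted p = 0.0165). mt-Co1 stood at 5305 and 3855 CPM in KO and at 749 and 1167 with IWR1 (log2 fold change -2.26 ± 0.37, adjusted p = 0.0179). mt-Nd4, a membrane-arm subunit of complex I, stood at 1407 and 950.0 CPM in KO and at 139.5 and 249.5 with IWR1 (log2 fold change -2.60 ± 0.40, adjusted p = 0.0159). In each of these 3 genes the lowest KO library was more than 3 times the highest library with IWR1. The smallest difference belonged to mt-Co3, at 4633 and 3990 CPM in KO and 1663 and 2049 with IWR1 (log2 fold change -1.22 ± 0.29, adjusted p = 0.0389). Counts placed on the light-strand gene mt-Nd6 fell with the others, from 356 and 242 CPM to 53.2 and 80.9 (log2 fold change -2.16 ± 0.32, adjusted p = 0.0145). No source used here says whether counting used strand, so these counts may include reads of the opposite strand. A fall of light-strand transcripts was therefore not tested. mt-Atp8, a small subunit of complex V, was the gene not called, at 409 and 195 CPM in KO and 37.7 and 102 with IWR1 (log2 fold change -2.11 ± 0.55, adjusted p = 0.0515). By complex, 7 of 7 genes of complex I, 3 of 3 of complex IV, 1 of 1 of complex III and 1 of 2 of complex V were called lower. Without IWR1 replicate 1, the lower of the pair, the difference in the log2 ratio to the nuclear genes was -1.69. The calls did not hold without that library, where fewer of all genes were called as well. Markers of other cell types moved with the treatment too, in both directions. The 8 fibroblast markers summed to 26455 and 20593 CPM in KO and 1301 and 3486 with IWR1, and the 8 endoderm markers to 1375 and 564 against 83.7 and 134 CPM, with all 8 of each list detected in both groups. Not every member fell. Of the fibroblast markers 1 was called higher and 6 lower, and of the endoderm markers 1 higher and 5 lower, beside 5.77% and 8.08% of all genes. Thy1, listed for fibroblasts, stood at 1.72 and 1.75 CPM in KO and 5.82 and 6.31 with IWR1. Foxa2, listed for endoderm, stood at 3.27 and 2.08 CPM in KO and 20.9 and 13.6 with IWR1. The 8 cardiomyocyte markers rose in sum, from 76.9 and 179 to 460 and 368 CPM, with 4 called higher and 0 lower. The part of these cell types in the mitochondrial result was not tested.

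**Figure D2:**
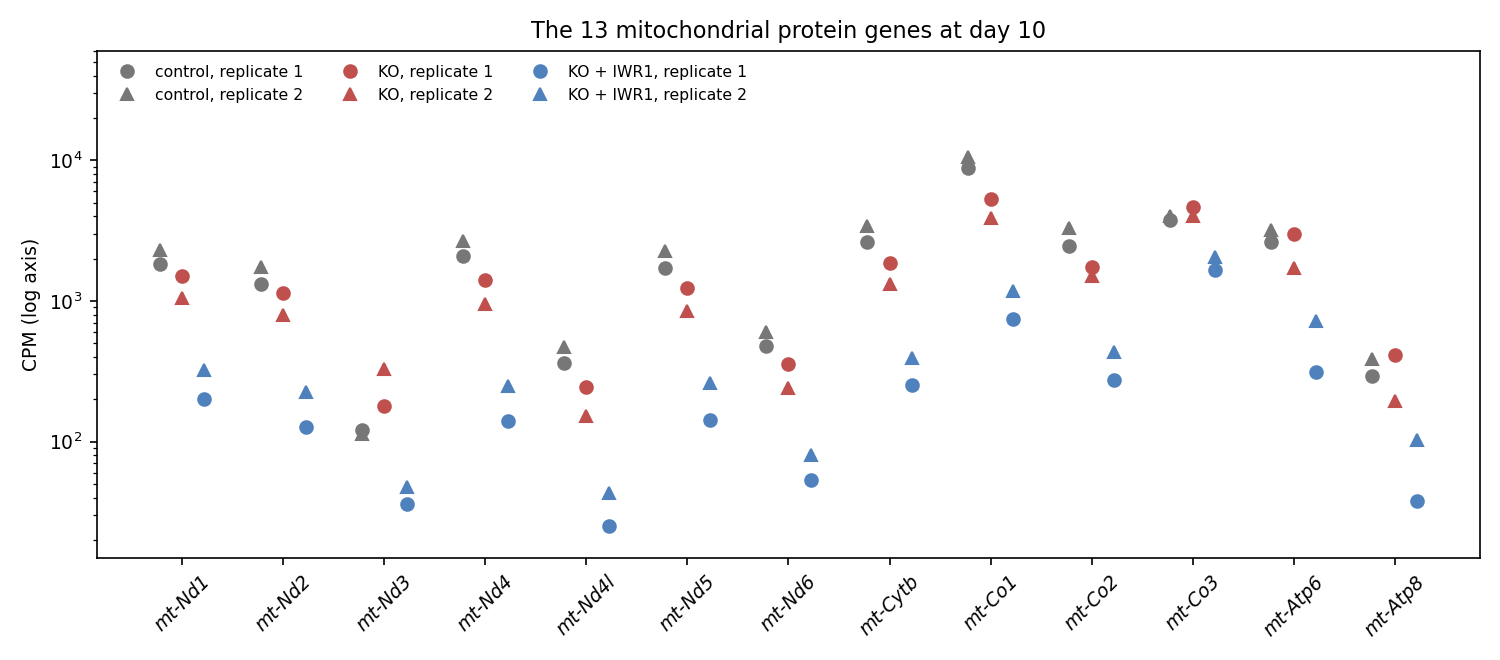
Level of each mitochondrial protein gene (CPM, log axis) in the 6 day 10 libraries, in control (grey), KO (red) and KO with IWR1 (blue); circles are replicate 1 and triangles replicate 2. Every gene is lowest in the IWR1 libraries, and mt-Co3 shows the smallest gap, 1663 and 2049 CPM against 4633 and 3990 in KO.

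KO against control at day 10 uses the same KO libraries as the IWR1 comparison. No mitochondrial gene was called (8 of 13 had an unadjusted p under 0.05, and DESeq2 called 1 higher and 4 lower), where 5.27% of all genes were called, and the median log2 fold change was -0.83. The genes did not move alike. For 9 of them log2 fold changes ran from -1.08 to -0.66. mt-Co1 was among these at 8864 and 10547 CPM in control and 5305 and 3855 in KO (log2 fold change -1.08 ± 0.36, adjusted p = 0.155). The exceptions, a grouping made after their values were seen, were 4 genes that lie side by side on the mitochondrial chromosome, in the order mt-Atp8 (chrM:7766-7969 in mm10), mt-Atp6 (7927 to 8607), mt-Co3 (8607 to 9390) and mt-Nd3 (9459 to 9806). mt-Atp8 had a log2 fold change of -0.17 ± 0.53, mt-Atp6 -0.31 ± 0.47 and mt-Co3 0.15 ± 0.28, each with overlapping groups. mt-Nd3 was higher in KO, at 179.7 and 329 CPM against 121 and 113 in control (log2 fold change 1.12 ± 0.32, adjusted p = 0.106). mt-Atp6, mt-Co3 and mt-Nd3 each have a copy in the nuclear genome on chromosome 1 (Gm10925, Gm28437 and Gm28438), at 100% identity for the former pair of genes and 99.7% for mt-Nd3. Such copies are not particular to the exceptions: mt-Co1, mt-Co2, mt-Nd4 and mt-Nd4l also have copies on chromosome 1, and none was assigned to mt-Atp8. Gm28437 took 3819 counts over the day 10 libraries, against 804590 on mt-Co3. The copy Gm28438 took 56.8% and 56.2% of the counts of its pair with mt-Nd3 in control, 64.7% and 56.9% in KO and 80.02% and 75.5% in KO with IWR1. When the counts of all such copies were added to their genes, 1 mitochondrial gene was called between KO and control, in the higher direction.

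At days 3 and 5 the same 13 genes were not called between KO and control. At day 3 the median log2 fold change was -0.08 (1 gene with an unadjusted p under 0.05, and DESeq2 called 1 higher), where 32.9% of all genes were called. The gene that stood apart was mt-Nd3, at 53.4 and 55.7 CPM in control and 181 and 109 in KO (log2 fold change 1.41 ± 0.48, adjusted p = 0.0922). Its copy Gm28438 took 73.1% and 70.1% of the pair's counts in control and 33.0% and 54.0% in KO. The copy's own counts overlapped, at 1646 and 1482 in control and 1011 and 1513 in KO. Those of mt-Nd3 were 607 and 633 in control and 2050 and 1289 in KO. The part of the copy in the difference was not tested. At day 5 the median log2 fold change was -0.53 (1 gene with an unadjusted p under 0.05, and DESeq2 called 1 lower), where 43.5% of all genes were called. The day 5 value depends on which KO library is read. mt-Co1, for example, stood at 16038 and 20128 CPM in control and at 16140 and 9369 in KO. With KO replicate 2 as the only KO library, the difference in the log2 ratio to the nuclear genes was -0.97. With KO replicate 1 as the only one, it was -0.20.

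The mitochondrial genes rose between days 3 and 5 in control. All 13 had a positive log2 fold change, and 8 were called higher, where 30.6% of all genes were called higher and 60.8% in either direction. Their median log2 fold change was 1.00, against -0.05 for the 81 nuclear genes tested. mt-Cytb rose from 2459 and 2403 CPM to 5151 and 6354 (log2 fold change 1.24 ± 0.30, adjusted p = 0.0201), and mt-Co2 from 1503 and 1311 to 3013 and 3849 (log2 fold change 1.29 ± 0.34, adjusted p = 0.0268). The copy Gm28661, at 100% identity to mt-Co2, took 53.8% and 58.0% of the pair's counts in day 3 control and 46.5% and 44.7% in day 5 control, and these are not in the mt-Co2 levels. With all copies added, 9 mitochondrial genes were called higher. Leaving out any of the 4 libraries reduced the 8 calls, and fewer of all genes were called as well. Cell type markers moved over the same days in control: the pluripotency markers summed to 2370 and 2329 CPM at day 3 and 68.3 and 75.7 at day 5, the fibroblast markers to 30.2 and 31.4 and then 1526 and 1251, and the erythroid markers to 1.23 and 1.06 and then 1339 and 1396. By call, 1 pluripotency marker was higher and 7 lower at day 5, 7 fibroblast markers were higher and 1 lower, and 8 erythroid markers were higher. At day 3, 5 of 8 erythroid and 7 of 8 fibroblast markers were detected, with Hbb-y, Hbb-bh1, Hba-x and Lum at 0. Their part in the mitochondrial rise was not tested. In KO the median was 0.52 and no gene was called (1 had an unadjusted p under 0.05, and DESeq2 called 4 higher), where 53.8% of all genes were called. Without day 5 KO replicate 2, the rise in the log2 ratio to the nuclear genes in KO was 0.90, against 0.51 with both libraries. The KO effect of day 5 minus that of day 3 was negative for all 13 genes, with a median of -0.52 on the log2 scale, and was called for none of them (0 with an unadjusted p under 0.05, and 0 by DESeq2).

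**Figure D3:**
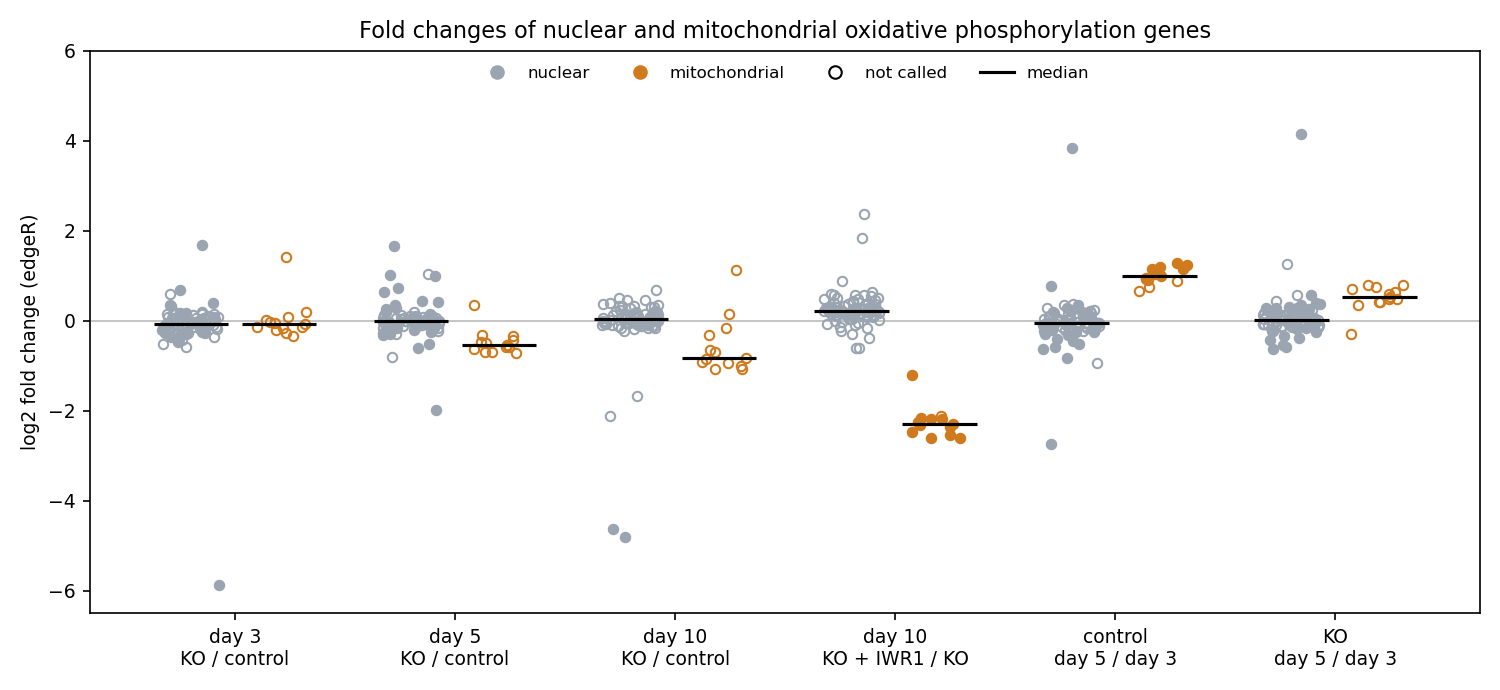
Log2 fold change (edgeR) of each nuclear (grey) and mitochondrial (orange) gene in 6 comparisons; filled points were called at an adjusted p under 0.05, open points were not, and black lines are medians. Nuclear medians lie between -0.07 and 0.22, while the mitochondrial medians run from -2.29 for IWR1 to 1.00 for day 5 against day 3 in control.

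The nuclear genes went in both directions at days 3 and 5, with more lower than higher in KO at day 3. Of 81 tested at day 3, 7 were called higher and 14 lower in KO, where 16% of all genes were called higher and 16.9% lower. At day 5, 11 were called higher and 10 lower, where 21.9% and 21.7% of all genes were. Against that background, the lower calls of day 3 are close to it and the other counts lie under it. The medians were -0.07 and -0.01, against -0.01 and 0.01 over all genes. Log2 fold changes were negative for 51 genes and positive for 30 at day 3, and negative for 44 and positive for 37 at day 5. With the counts of near-identical copies added, 6 were called higher and 18 lower at day 3, where 32.9% of all genes were called. At day 5 that gave 10 higher and 13 lower, where 43.6% of all genes were called. Cox6a2, Cox7b2, Cox8b, Cox8c and the second Atp5o did not pass the filter on low counts in this table. Without any given day 3 library the day 3 count fell, as did the share of all genes called. Ndufa4l2, a relative of Ndufa4 known as a hypoxia-induced gene, stood at 5.01 and 6.33 CPM in day 3 control and 0.0883 and 0.0844 in KO, the latter being 2 counts in all, so no fold is given.

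Some of the largest nuclear differences were in genes with near-identical processed copies elsewhere in the genome. Ndufs5, an accessory subunit of complex I (chromosome 4, 123712710 to 123718202, minus strand), stood at 9.59 and 9.32 CPM in day 3 control and 29.95 and 30.6 in KO (log2 fold change 1.68 ± 0.14, adjusted p = 2.92e-05), and at 11.1 and 13.5 against 42.7 and 34.9 CPM at day 5 (1.66 ± 0.14, adjusted p = 2.09e-05). Ndufa12, an accessory subunit of complex I (chromosome 10, 94198720 to 94221443, plus strand), stood at 28.7 and 25.2 against 41.3 and 44.6 CPM at day 3 (0.67 ± 0.10, adjusted p = 0.00111) and at 22.9 and 25.9 against 41.4 and 39.4 at day 5 (0.73 ± 0.11, adjusted p = 0.000552). The copies are BC002163 on chromosome 16 for Ndufs5 and Gm15920 on chromosome 5 for Ndufa12. Over 319 aligned bases Ndufs5 and BC002163 differ at 2 positions, and over 402 bases Ndufa12 and Gm15920 differ at 2. The windows around those positions are shown because they are all that tells a read of the gene from a read of its copy in the shared stretch, with the differing base in capitals; positions are counted from 1 at the 5′ end of each window, and sequences are those of the GENCODE vM21 transcripts of mm10. The first pair differs by T15C and the second pair by A15G.
Ndufs5, first window: gcagaacagccctaTaagaacgccgctcg
BC002163, first window: gcagaacagccctaCaagaacgccgctcg
Ndufs5, second window: gctcggtgccacgcAtttgaaaaagagtg
BC002163, second window: gctcggtgccacgcGtttgaaaaagagtg
For Ndufa12 the first pair differs by A15G and the second by T15C.
Ndufa12, first window: gaagacaaatatggAaataaatactacga
Gm15920, first window: gaagacaaatatggGaataaatactacga
Ndufa12, second window: attcatgaatgggtTccaccttcgacacc
Gm15920, second window: attcatgaatgggtCccaccttcgacacc

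At days 3 and 5 the counts placed on these copies separated the lines. In control, BC002163 took 55.5% and 62.3% of the counts of its pair with Ndufs5 at day 3 and 53.5% and 52.4% at day 5, against 1.45% and 0% (5 and 0 counts) and 2.87% and 0.990% in KO. Gm15920 took 49.6% and 53.9% of its pair with Ndufa12 in day 3 control and 60.6% and 53.6% at day 5, against 0% and 0.938% and then 12.6% and 5.83% in KO. A further copy, Gm6969 of the complex IV gene Cox7a2l, went the same way. It took 11.5% and 13.4% of its pair in day 3 control and 11.6% and 11.6% at day 5. In KO it took 0% and 0% at day 3 and 0.804% and 0.731% at day 5. When the copies' counts were added to the genes, Ndufs5 was still higher in KO but by less, with log2 fold changes of 0.40 ± 0.14 (adjusted p = 0.0490) at day 3 and 0.60 ± 0.13 (adjusted p = 0.00590) at day 5. Ndufa12 turned round and was called lower in KO, at -0.37 ± 0.09 (adjusted p = 0.00999) and -0.35 ± 0.09 (adjusted p = 0.00926). At day 10 all 3 groups were alike: Gm15920 took 50.1% to 51.5% of its pair in all 6 libraries, BC002163 33.6% to 38.4% and Gm6969 17.2% to 19.3%. The KO libraries of day 10 therefore did not show the low copy shares of the KO libraries of days 3 and 5, and the reason was not tested. In all, 54 annotated pseudogenes matched 22 nuclear and 9 mitochondrial genes at 95% identity or more. For Atp5g2, a ring subunit of complex V, the copy Gm10175 took 91.7% to 96.1% of the pair's counts in every library, so no level is given for it.

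**Figure D4:**
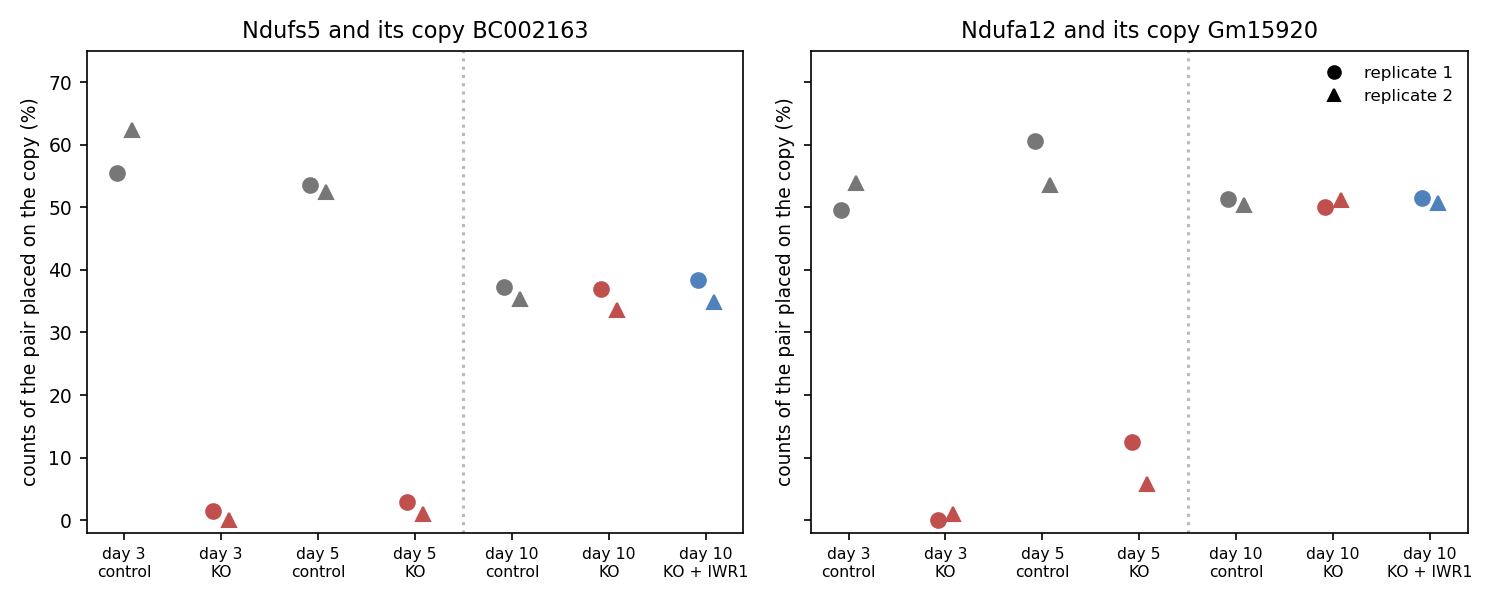
Share (%) of the counts of Ndufs5 plus BC002163 (left) and of Ndufa12 plus Gm15920 (right) that was placed on the copy, in each library; circles are replicate 1 and triangles replicate 2, with control in grey, KO in red and KO with IWR1 in blue. At days 3 and 5 KO libraries lie at 12.6% or less and control libraries at 49.6% or more, and the day 10 libraries do not separate by group.

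In complex I, 3 of 35 nuclear genes were called higher and 7 lower at day 3, and 4 higher and 6 lower at day 5. Of all genes, 16% were called higher and 16.9% lower at day 3, and 21.9% and 21.7% at day 5. Ndufa6, an accessory subunit of the matrix arm, was lower in KO at both times, at 62.5 and 60.4 against 43.6 and 44.4 CPM on day 3 (a log2 fold change of -0.48 ± 0.08, adjusted p = 0.00149) and 60.4 and 54.2 against 40.2 and 39.7 at day 5 (-0.52 ± 0.08, adjusted p = 0.000737). Ndufv3, an accessory subunit of the NADH-binding module, stood at 49.0 and 50.9 CPM in day 3 control and 41.3 and 48.8 in KO, which was not called (-0.15 ± 0.09, adjusted p = 0.230). By day 5 it stood at 83.2 and 87.6 against 56.9 and 54.9 CPM, and this was called (-0.61 ± 0.09, adjusted p = 0.000484). Its rise from day 3 to day 5 was called in both lines, by 0.77 ± 0.09 in control (adjusted p = 5.74e-05) and 0.31 ± 0.09 in KO (adjusted p = 0.0145).

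In complex II, which feeds electrons from the citric acid cycle, the membrane anchor Sdhd was higher in KO at both times, at 133 and 135 against 171 and 169 CPM on day 3 (a log2 fold change of 0.34 ± 0.05, adjusted p = 0.00107) and 124 and 129 against 155 and 148 at day 5 (0.26 ± 0.05, adjusted p = 0.00332). The other membrane anchor, Sdhc, was lower in KO at day 5, at 114 and 119 against 98.2 and 95.1 CPM (-0.27 ± 0.07, adjusted p = 0.00899). The flavoprotein Sdha was higher at day 5 by 0.16 ± 0.05 (adjusted p = 0.0345), and the iron-sulphur subunit Sdhb was not called at either time. The complex II genes thus did not share a direction.

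In complex III, 2 of 9 nuclear genes were called higher and 1 lower at day 3, and none was called at day 5 (0 with an unadjusted p under 0.05 there). The shares of all genes called were those given for complex I. Uqcrq, a small subunit, stood at 53.3 and 51.3 CPM in day 3 control and 67.2 and 71.2 in KO (log2 fold change 0.40 ± 0.07, adjusted p = 0.00305). Uqcrfs1, the Rieske iron-sulphur protein, stood at 101 and 104 against 82.2 and 86.6 CPM (-0.28 ± 0.06, adjusted p = 0.00775). Cyc1, the haem-carrying cytochrome c1, fell from day 3 to day 5 in both lines, by 0.51 ± 0.05 on the log2 scale in control (adjusted p = 3.78e-05) and by 0.59 ± 0.05 in KO (adjusted p = 2.19e-05). In complex V, 1 of 17 nuclear genes was called higher and 3 lower at day 3, and 2 were called lower at day 5, beside the same shares of all genes. Atp5e, the epsilon subunit of the central stalk, was lower in KO at both times, at 98.0 and 86.6 against 69.4 and 74.5 CPM at day 3 (-0.36 ± 0.07, adjusted p = 0.00537) and 94.2 and 90.7 against 72.9 and 74.4 at day 5 (-0.33 ± 0.07, adjusted p = 0.00629). The alpha subunit gene Atp5a1 fell with time in both lines, from 549 and 539.6 to 433 and 441 CPM in control (-0.32 ± 0.04, adjusted p = 0.000194) and by 0.24 ± 0.04 on the log2 scale in KO (adjusted p = 0.00125).

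Over time, 9 nuclear genes were called higher and 16 lower at day 5 against day 3 in control, where 30.6% of all genes were called higher and 30.2% lower. In KO, 15 were called higher and 11 lower, where 28.3% and 25.5% of all genes were. These comparisons share their libraries with the KO comparisons above. The KO effect of day 5 minus that of day 3 was called positive for 9 nuclear genes and negative for 3, where 13.4% and 10.8% of all genes were. Of the 9 positive ones, 7 belong to complex IV, which had 16 genes tested, and the other 2 are Ndufa9 and Uqcrfs1. The count of 12 is not firm: DESeq2 called 2, and leaving out a library gave between 5 and 19.

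The complex IV genes reached that difference by different routes. Cox7a2, the broadly expressed form of subunit 7a, stood at 107 and 108 CPM in day 3 control and 69.8 and 73.5 at day 5, while KO stood at 116 and 123 and then 111 and 113. Its difference between KO effects was 0.49 ± 0.08 (adjusted p = 0.00234). Cox5a, a matrix-facing subunit, went the same way, from 118 and 121 to 82.3 and 93.0 CPM in control and from 119 and 123 to 117 and 122 in KO (0.43 ± 0.09, adjusted p = 0.00955). For these genes, control fell (-0.59 ± 0.06, adjusted p = 2.54e-05, and -0.45 ± 0.07, adjusted p = 0.000358) and no change was called in KO. Cox6b1, which faces the intermembrane space, stood at 139 and 143 CPM in day 3 control and 113 and 113 in KO, but at 145 and 145 against 155 and 143 at day 5 (0.35 ± 0.08, adjusted p = 0.0103). Ndufa4 did likewise, at 142 and 133 against 118 and 112 CPM and then 135 and 135 against 139.7 and 142 (0.31 ± 0.08, adjusted p = 0.0186). In these genes it was the day 3 KO libraries that lay low. Cox6b2, the form of subunit 6b known from testis, rose in KO from 17.7 and 18.4 to 28.1 and 25.5 CPM and stood at 16.4 and 15.1 and then 13.8 and 13.003 in control (0.80 ± 0.16, adjusted p = 0.00721).

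At day 10, 2 of the 83 nuclear genes tested were called lower in KO and none higher, where 3.35% of all genes were called lower and 1.92% higher. Cox7b2, Cox8c and the second Atp5o did not pass the filter there. Both calls were muscle forms of complex IV subunits. Cox6a2 (chromosome 7, 128205435 to 128206387, minus strand), the heart and skeletal muscle form of subunit 6a, stood at 56.1 and 32.0 CPM in control, 0.630 and 2.54 in KO and 2.32 and 3.53 in KO with IWR1. Its log2 fold change in KO was -4.81 ± 0.68 (adjusted p = 0.0170). Cox8b (chromosome 7, 140898945 to 140900446, minus strand), the muscle form of subunit 8 in the mouse, stood at 3.17 and 1.38 CPM in control, 0.0970 and 0.0820 in KO and 0.455 and 0.496 with IWR1, a log2 fold change of -4.62 ± 0.63 (adjusted p = 0.0152) that rests on 7 counts over both KO libraries. Cox7a1, the muscle form of subunit 7a, stood at 18.7 and 9.24 CPM in control and 1.99 and 4.51 in KO, which was not called (-2.11 ± 0.52, adjusted p = 0.0748). Without control replicate 1 neither Cox6a2 nor Cox8b was called, with log2 fold changes of -4.34 and -3.89, and without KO replicate 2 Cox8b was not called (-4.51). Fewer of all genes were called without either library as well.

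None of the broadly expressed partners of these subunits was called. Cox6a1 stood at 155 and 116 CPM in control and 120.2 and 196 in KO, Cox7a2 at 126 and 93.6 and 80.3 and 137, and Cox8a at 169 and 122 and 119 and 183, with overlapping groups in each case. Their log2 fold changes were 0.23 ± 0.30 (adjusted p = 0.778), -0.01 ± 0.36 (adjusted p = 0.990) and 0.05 ± 0.29 (adjusted p = 0.957). The 8 cardiomyocyte markers moved with the muscle forms: they summed to 4896 and 4167 CPM in control, 76.9 and 179 in KO and 460 and 368 in KO with IWR1, all 8 being detected in each group. Their part in the result was not tested. At days 3 and 5, when the same markers summed to between 11.8 and 74.2 CPM, Cox6a2 had at most 12 counts over a group and Cox8b at most 1.

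**Figure D5:**
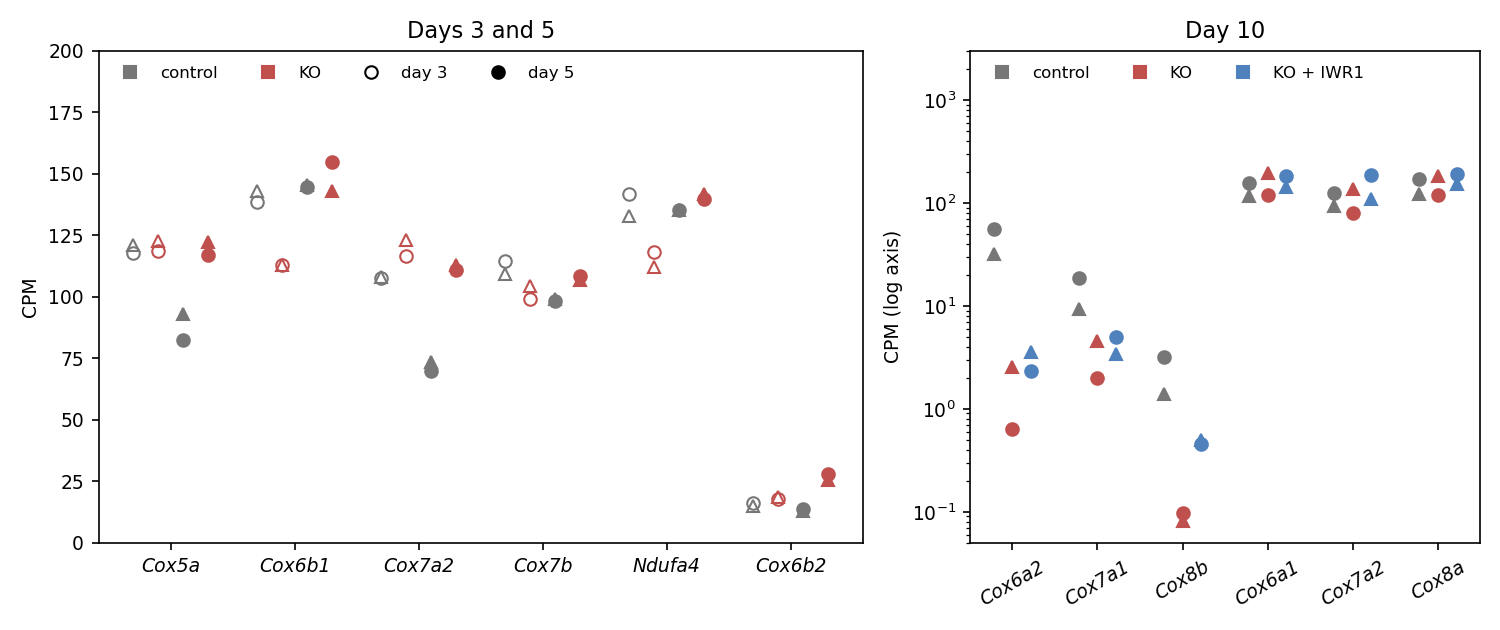
Levels of complex IV genes in each library. Left, CPM at day 3 (open) and day 5 (filled) in control (grey) and KO (red) of 6 genes whose KO effect differed between the days; right, CPM on a log axis at day 10 of the muscle forms Cox6a2, Cox7a1 and Cox8b and their broad partners, with KO with IWR1 in blue; circles are replicate 1 and triangles replicate 2. Control Cox7a2 falls to 69.8 and 73.5 CPM at day 5 while KO stays at 111 and 113, and Cox6a2 stands at 56.1 and 32.0 CPM in day 10 control against 0.630 and 2.54 in KO.

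The promoters of Cox8b and Cox8a are shown because these genes encode forms of the same subunit, of which the former was lower in KO at day 10, and that of Cox7a2 because it is the only promoter of the set with the forkhead letters. Each runs from 250 bases before to 50 after the start in RefSeq GRCm38.p6, 5′ to 3′ on the gene's strand, with motif letters in capitals. In Cox8b (chr7:140900397-140900696, minus strand) these are CAGCTG, an E-box. In Cox8a (chr19:7217567-7217866, minus strand) they are CCGGAAG on the opposite strand, the core of ETS family sites. In Cox7a2 (chr9:79759804-79760103, minus strand) they are GTAAACA, the core of forkhead sites.
Cox8b: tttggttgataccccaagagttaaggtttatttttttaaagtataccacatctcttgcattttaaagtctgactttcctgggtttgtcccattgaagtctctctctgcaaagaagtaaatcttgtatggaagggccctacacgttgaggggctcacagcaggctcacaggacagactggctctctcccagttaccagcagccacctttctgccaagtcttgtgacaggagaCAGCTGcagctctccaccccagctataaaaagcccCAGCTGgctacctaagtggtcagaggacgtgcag
Cox8a: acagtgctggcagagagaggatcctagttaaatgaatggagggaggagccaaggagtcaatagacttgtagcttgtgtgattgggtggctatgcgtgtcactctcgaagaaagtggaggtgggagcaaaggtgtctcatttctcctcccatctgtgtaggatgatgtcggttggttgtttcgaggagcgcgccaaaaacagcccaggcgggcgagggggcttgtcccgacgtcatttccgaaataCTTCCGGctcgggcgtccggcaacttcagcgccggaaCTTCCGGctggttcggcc
Cox7a2: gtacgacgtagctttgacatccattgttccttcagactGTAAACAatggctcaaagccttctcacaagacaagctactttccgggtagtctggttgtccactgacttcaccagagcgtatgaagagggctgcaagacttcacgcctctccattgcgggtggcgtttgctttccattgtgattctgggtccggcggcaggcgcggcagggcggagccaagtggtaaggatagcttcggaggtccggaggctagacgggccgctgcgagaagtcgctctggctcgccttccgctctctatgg

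A promoter was found for 68 of the 85 nuclear symbols, and both strands were searched. The palindromic core motif of NRF1 was in 5 of 68 (7.35%) and in 1.07% of the 27025 genes with a promoter in the table. CCGGAAG was in 16 (23.5%), against 9.93% of all. AAGATGGC, the core of the YY1 site, was in 10 (14.7%), against 3.19%. GTAAACA was in 1 (1.47%), against 4.05%, and CAGCTG in 6 (8.82%), against 18.3%. The MEF2 motif was in 0 of 68, against 3.70%. A match is a description of letters, and its absence says only that they are not in this window. NRF1 and ETS factors of the GABP kind are known regulators of respiratory genes.

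Genes that control or accompany these complexes were read from lists. Of 13 nuclear regulators tested at days 3 and 5, 4 were called higher and 1 lower in KO at day 3 (16% and 16.9% of all genes), and 8 higher and 1 lower at day 5 (21.9% and 21.7% of all genes). At day 10, 16 were tested, of which 0 were called higher and 2 lower, where 3.35% of all genes were called lower. The 2 were Esrrg, an orphan receptor that drives oxidative genes in heart, at 15.5 and 16.2 CPM in control and 2.04 and 1.56 in KO (log2 fold change -3.14 ± 0.33, adjusted p = 0.00868), and Ppargc1a, the PGC-1alpha coactivator, at 15.4 and 18.7 against 3.78 and 3.93 CPM (-2.14 ± 0.43, adjusted p = 0.0430). The cardiomyocyte marker sums given above moved with them as well. Of 28 genes for mitochondrial DNA upkeep, transcription and RNA processing, 0 were called higher and 8 lower in KO at day 3, beside 16% and 16.9% of all genes, and 8 higher and 3 lower at day 5, beside 21.9% and 21.7%. Polg, the catalytic subunit of the mitochondrial DNA polymerase, stood at 233 and 223 CPM in day 3 control and 79.6 and 83.6 in KO (-1.48 ± 0.07, adjusted p = 4.50e-07), and at 465 and 476 against 367 and 322 at day 5 (-0.45 ± 0.06, adjusted p = 0.000479). Hsd17b10, a subunit of mitochondrial ribonuclease P, was lower in KO at both times, by 0.55 ± 0.07 and 0.62 ± 0.07 on the log2 scale (adjusted p = 0.000510 and 0.000170). With IWR1, where the mitochondrial transcripts fell, 1 of these 28 genes was called higher and 0 lower, beside 5.77% and 8.08% of all genes. This was Fastkd5, which takes part in cutting the precursors that lack flanking transfer RNAs. It stood at 10.3 and 11.7 CPM in KO and 26.8 and 20.1 with IWR1 (1.09 ± 0.24, adjusted p = 0.0323). Tfam, the main mitochondrial transcription and packaging factor, stood at 49.5 and 66.1 against 118 and 79.0 CPM and was not called (0.77 ± 0.26, adjusted p = 0.0938).

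From day 3 to day 5 in control, where mitochondrial transcripts rose, 4 of these 28 genes were called higher and 16 lower, and of 78 genes for mitochondrial ribosomal proteins 4 were called higher and 33 lower, where 30.6% and 30.2% of all genes were. Polg rose in both lines, by 1.05 ± 0.06 in control (adjusted p = 1.48e-06) and 2.08 ± 0.07 in KO (adjusted p = 7.39e-08). Of 47 assembly factors, 46 were tested, with 4 called higher and 3 lower in KO at day 3 and 4 and 2 at day 5, all below the shares of all genes just given for those days. Among those called at day 3, Ndufaf4, an assembly factor of complex I, stood at 62.5 and 57.9 CPM in day 3 control and 29.6 and 35.3 in KO (-0.89 ± 0.11, adjusted p = 0.000410), and Cox18, which inserts the mitochondrial Cox2 protein, at 16.5 and 16.98 against 9.54 and 9.96 (-0.78 ± 0.13, adjusted p = 0.00165). Of 24 glycolysis identifiers tested, 10 were called higher and 3 lower in KO at day 3, beside 16% and 16.9% of all genes. At day 5, 14 were called higher and 6 lower, beside 21.9% and 21.7%. The day 10 comparison called 0 higher and 1 lower in KO, beside 1.92% and 3.35%, with a median log2 fold change of -0.52. Eno1, an enolase, stood at 1332 and 1323 CPM in day 3 control and 3780 and 3821 in KO (1.52 ± 0.05, adjusted p = 3.16e-08). Copies were sought only for the subunit genes, not for the genes of these lists. The part of any copies in the levels of listed genes, Eno1 among them, was not tested. Cytochrome c itself, Cycs, stood at 45.05 and 48.8 CPM in day 5 control and 73.7 and 70.3 in KO (0.62 ± 0.08, adjusted p = 0.000414).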

How the data were processed

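RNA sequencing libraries of 14 embryoid body samples were deposited as 2 tables of 36047 versioned Ensembl identifiers, split between the earlier days and day 10. The values are estimated counts per gene that the authors made with kallisto 0.46.2 on mm10, per the submitters' processing notes, deposited as whole numbers and used as such. No source used here says how transcripts were summed or whether counting used strand. Symbols, types and lengths came from GENCODE vM21. Each table was fitted with edgeR 4.0.16 in R 4.3.3 (filterByExpr, TMM, robust quasi-likelihood F-test, two-sided, Benjamini-Hochberg over all genes tested, threshold 0.05): 8 libraries and 14430 genes with 4 residual degrees of freedom, and 6 libraries and 17022 genes with 3. No model crossed the tables. Errors of fold changes are SEs. CPM use TMM-scaled library sizes, and levels per length use the median length of a gene's basic transcripts. Copies are annotated pseudogenes with a blastn 2.17.0 match to a gene that covers at least 80% of their length with a minimum identity of 95%. The fit was tested on simulated counts. Named nuclear genes are, per comparison and complex, the 2 called genes with the largest change each way at 5 CPM or more, plus tissue forms with their broad partners, core subunits and the 5 highest per length; up to 4 genes per other list were named by smallest p. The members and lists were chosen with earlier results of these data known. Alternatives were DESeq2 1.42.0, TMM without mitochondrial genes, no filter, a replicate block, only the groups compared, added copies and each library left out. Same-numbered libraries did not deviate together, so numbers were not taken as pairs.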

Additional observations from a re-analysis of the deposited data

Results flagged for a closer look

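In 12 of 81 nuclear genes tested the difference between KO and control was not the same at days 3 and 5 by a test of that difference itself (the interaction in edgeR's quasi-likelihood test, adjusted over all genes). That test called 24.2% of all genes, so the count for these genes lies under the share of all genes. As given above, the count is also not firm across methods. The KO effect of day 5 minus that of day 3, on the log2 scale, was positive in 7 complex IV genes: Cox6b2 (0.80), Cox7a2 (0.49), Cox5a (0.43), Cox6b1 (0.35), Ndufa4 (0.31), Cox7b (0.26) and Ndufa4l2 (6.89). The value of Ndufa4l2 rests on 2 counts over the day 3 KO libraries, against 129 in day 3 control, and is no measure of size. It was also positive in Uqcrfs1 of complex III (0.35) and Ndufa9 of complex I (0.27). It was negative in Ndufv3 (-0.46), Uqcrq (-0.39) and Atp5d, the delta subunit of complex V (-0.34).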

How the results depend on the processing

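With 2 libraries a group, a gene not called is not shown to be unchanged. With DESeq2 the nuclear calls numbered 9 at day 3, 12 at day 5, 4 at day 10, 2 for IWR1, 14 over the control course, 12 over the KO course and 2 for the interaction, and the mitochondrial calls 1, 1 and 5 for KO at days 3, 5 and 10 and 4 over the KO course, where it called 11.9% to 48.3% of all genes. Fitting only the groups compared gave 37 nuclear (11 higher, 26 lower) and 7 mitochondrial calls (2 and 5) at day 3, where 53.7% of all genes were called. It gave 1 nuclear call for IWR1 and 15 nuclear calls over the KO course, where 6.09% and 45.7% of all genes were called. Without the filter there were 4 nuclear and 2 mitochondrial calls at day 10, where 7.09% of all genes were called. That setting gave 2 nuclear calls for IWR1 and 4 mitochondrial calls over the control course, where 15.1% and 39.1% of all genes were called. Adding copies gave 1 mitochondrial call at day 10, where 5.3% of all genes were called, and reversed Ndufa12, to -0.37 at day 3 and -0.35 at day 5. Leaving out single libraries gave nuclear calls of 10 to 12 at day 3, 13 to 30 at day 5, 0 to 2 at day 10, 15 to 19 over the control course, 12 to 29 over the KO course and 5 to 19 for the interaction. The mitochondrial calls ranged over 0 to 12 at day 5, 0 to 1 at day 10, 0 to 12 for IWR1, 0 to 3 over the control course, 0 to 11 over the KO course and 0 to 7 for the interaction, whose log2 ratio to nuclear counts ranged from -0.97 to -0.20. The share of all genes called shifted with the library left out as well, and a lone library was assumed to vary like the other groups. The cause of these shifts was not tested. Same-numbered libraries' deviations correlated by 0.02 at day 3, 0.04 at day 5, -0.30 for KO at day 10 and -0.32 for IWR1, so the numbers were not taken as pairs. The replicate block gave 5 mitochondrial calls over the control course, where 59.9% of all genes were called. Crossed pairing at day 10, added after seeing the data, gave 6 nuclear calls (2 higher, 4 lower) and 9 mitochondrial calls (all lower) for KO, where 19.1% of all genes were called, and 21 nuclear calls (19 higher, 2 lower) for IWR1, where 42.7% were. Of 101 calls on named genes, 69 held with DESeq2, 98 with TMM without mitochondrial genes, 91 without the filter, 90 with the block and 98 with copies added, and 79 of the 89 that could be fitted with only the groups compared held. When single libraries were left out, 293 of 452 such results held and 159 lost their call.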
